A study of Mus musculus with 9 samples.

Results

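Pgr, the progesterone receptor gene, and 7 genes known to depend on this receptor at ovulation were examined for binding of the glucocorticoid receptor (GR) in mouse granulosa cells. The genes are Pgr, Edn2, Snap25, Pparg, Prkg2, Il6, Cxcr4 and Cited2, and they are 8 of the 21883 protein-coding genes in the gene table used. They were chosen by name, with earlier results of these data known. Shares of all genes given beside their counts are therefore a description and not a test. All peaks between 50 kb before the gene and 50 kb after it, here called the window, were taken as theirs. GR becomes active on binding corticosterone and then attaches to DNA. The sites it occupied were mapped by ChIP-seq, in which DNA bound to a protein is pulled down with an antibody and sequenced. The cells came from the ovaries of wild-type, 21-day-old CBA x C57BL/6 F1 mice. All of them were first given eCG (equine chorionic gonadotropin, 5 IU) to stimulate follicle growth, and 44 h later they were killed (0 h) or given 5 IU of human chorionic gonadotropin (hCG), which acts like the surge of luteinising hormone (LH), and killed 6 h later. There were 2 GR libraries at 0 h, 2 at 6 h, and 1 library at 0 h of H3K27ac, an acetylated histone found at active promoters and enhancers. No group was killed at the later time without hCG, so hCG, the injection and the added hours cannot be told apart. Whether replicates were separate mice or pools is not stated, so the spread between libraries may be technical. The other 4 of the 9 samples, GR libraries from cells labelled PRWT and PRKO and pooled inputs, were not analysed here, and nothing below tests whether GR binding depends on the progesterone receptor.

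The progesterone receptor is a nuclear receptor that granulosa cells of large follicles make after the LH surge, and mice without it grow follicles that do not rupture. It acts through target genes with different roles, among them secreted signals, vesicle fusion, nuclear receptors and kinases. GR and the progesterone receptor belong to the same family of steroid receptors, and they recognise the same palindromic DNA element, made of a pair of half-sites that read AGAACA.

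Promoter sequences are shown for the 3 genes at which GR peaks of all 4 libraries overlapped the bases before a start site (Cxcr4, Pparg and Cited2), and for Pgr and Il6, at which no library had a GR peak there. They are the 250 bases before the start site, 5′ to 3′, from RefSeq, build GRCm38.p6. The RefSeq table matched 6 of the 8 genes with 8 promoters, 3 of them for Pparg, and not Snap25 or Prkg2. Capitals mark matches to the motifs searched.
Cxcr4 promoter, chr1:128592300-128592549, minus strand: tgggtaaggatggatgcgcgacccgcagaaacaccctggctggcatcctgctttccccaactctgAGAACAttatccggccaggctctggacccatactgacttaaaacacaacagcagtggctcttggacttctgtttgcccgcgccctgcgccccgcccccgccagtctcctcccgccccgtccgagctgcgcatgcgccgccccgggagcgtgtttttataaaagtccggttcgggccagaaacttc
Pparg second promoter, chr6:115362099-115362348, plus strand: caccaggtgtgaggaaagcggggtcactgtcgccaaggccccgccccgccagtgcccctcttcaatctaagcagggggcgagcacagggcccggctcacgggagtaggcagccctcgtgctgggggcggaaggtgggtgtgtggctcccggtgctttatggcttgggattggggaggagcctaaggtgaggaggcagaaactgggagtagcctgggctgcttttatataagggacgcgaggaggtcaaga
Cited2 promoter, chr10:17722978-17723227, plus strand: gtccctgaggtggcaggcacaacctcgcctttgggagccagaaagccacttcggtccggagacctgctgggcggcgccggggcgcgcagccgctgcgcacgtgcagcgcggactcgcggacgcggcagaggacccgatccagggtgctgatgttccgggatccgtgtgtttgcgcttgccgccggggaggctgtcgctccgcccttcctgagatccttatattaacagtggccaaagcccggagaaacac
Pgr promoter, chr9:8899583-8899832, plus strand: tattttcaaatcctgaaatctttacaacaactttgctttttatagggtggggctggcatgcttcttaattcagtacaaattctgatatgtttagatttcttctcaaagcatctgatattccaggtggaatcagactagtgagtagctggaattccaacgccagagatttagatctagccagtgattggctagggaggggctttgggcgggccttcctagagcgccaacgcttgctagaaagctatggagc
Il6 promoter, chr5:30012864-30013113, plus strand: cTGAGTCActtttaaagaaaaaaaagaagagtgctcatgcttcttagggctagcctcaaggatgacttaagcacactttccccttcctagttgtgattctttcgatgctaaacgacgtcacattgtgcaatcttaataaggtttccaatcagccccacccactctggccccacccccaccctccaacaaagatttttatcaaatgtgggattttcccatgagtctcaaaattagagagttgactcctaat
The motifs searched on both strands were the full palindrome of the steroid receptor element, its half-site AGAACA, the AP-1 element TGANTCA and the cyclic AMP response element TGACGTCA. The half-site lies within the full palindrome, so a match to the palindrome is also a match to the half-site. The capitals in the Cxcr4 promoter are 1 half-site, and 16.1% of all 32851 promoters held one. The capitals in the Il6 promoter are 1 AP-1 element, which 6.75% of all promoters held. No motif was found in the promoters of Pgr, Edn2 and Cited2 or in the 3 of Pparg. The full palindrome was in 0.00913% of all promoters and the cyclic AMP response element in 1.55%, and neither was in a promoter of these genes. A match is a description of letters, and no match says only that these letters are not in this window.

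The lists held 10119 and 9728 GR peaks at 0 h, 14748 and 10588 at 6 h, and 37460 H3K27ac peaks. The depth of sequencing is unknown, so a peak absent from a list is one that did not reach the authors' limit there and not a site shown to be free of GR. Of 12 granulosa markers, 10 had an H3K27ac peak within 1 kb of an end of the gene, Fshr, Foxl2, Inha and Amh among them, and Cyp19a1 and Nr5a2 had none there. Markers of other cells had such a peak for 2 of 6 theca genes (Cyp17a1 and Nr2f2), 1 of 7 leukocyte genes (Cd68), 1 of 6 endothelial genes (Cdh5) and 1 of 6 oocyte genes (Gdf9). Of all genes, 47.9% had one. Of the 8 genes described here, Pparg, Cxcr4 and Cited2 had one.

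GR peaks lay in the windows of 7 of the 8 genes, where 68.8% of all protein-coding genes had one. Il6 had none. The 8 windows held 11 and 13 peaks in the 0 h libraries and 23 and 21 in the 6 h libraries. Both 6 h libraries were above both 0 h libraries. The means were 12 ± 1.41 at 0 h and 22 ± 1.41 at 6 h (SD, n = 2 each), a difference of 10 peaks, larger than the spread between replicates. The exact two-sided permutation p was 0.333, the smallest that 2 against 2 libraries allow. With lists of equal length, the difference was 6 peaks (exact permutation p = 0.333). Per 1000 peaks of the same list, the windows held 1.09 and 1.34 peaks at 0 h and 1.56 and 1.98 at 6 h. The difference of 0.56 was also larger than the spread (1.21 ± 0.176 against 1.77 ± 0.300, SD, n = 2 each, exact permutation p = 0.333). The median gene of the 8 had 1.5 peaks in each 0 h library and 2.5 in each 6 h library, and the median of all genes was 1 in each library.

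**Figure D1:**
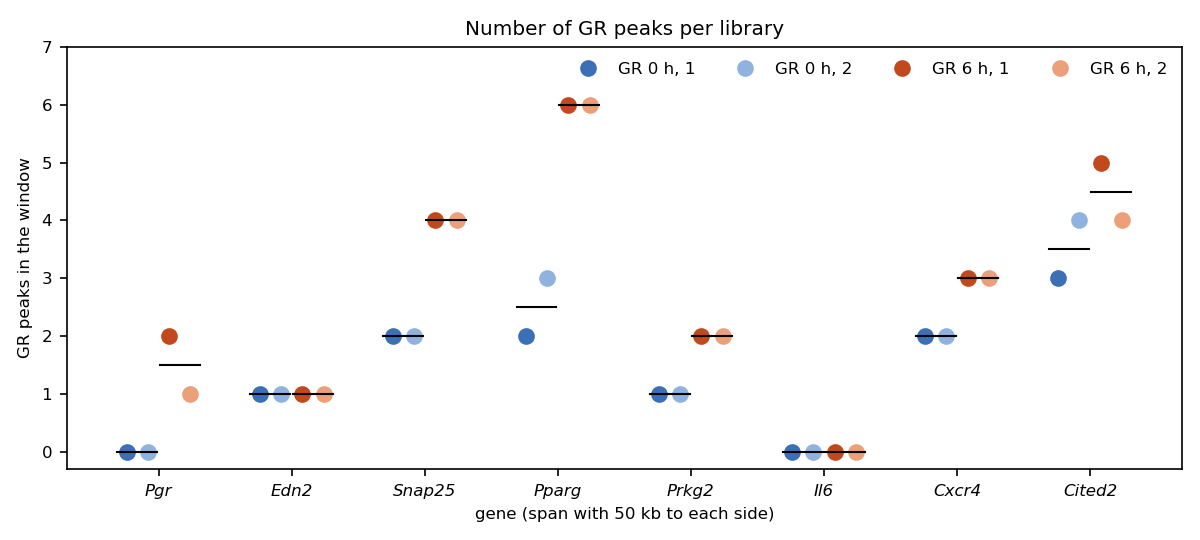
GR peaks in the window of each gene (vertical axis, number of peaks) in the 4 GR libraries. Points are libraries and bars are the means of the 2 libraries of a time. Pgr, Snap25, Pparg, Prkg2 and Cxcr4 have more peaks in each 6 h library than in each 0 h library, Cited2 overlaps at 4 peaks, Edn2 has 1 peak in each library and Il6 has 0.

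By gene, 5 of the 8 had more peaks in each 6 h library than in each 0 h library, and 10.9% of all genes did. None had fewer, and 3.66% of all genes did. Pparg had 2 and 3 peaks at 0 h and 6 in each 6 h library. Snap25 had 2 in each 0 h library and 4 in each 6 h library. Pgr had none at 0 h and 2 and 1 at 6 h, and none in any library with 10 or 25 kb to each side of the gene. Prkg2 had 1 in each 0 h library and 2 in each 6 h library, and Cxcr4 had 2 and 3 in the same order. Cited2 had 3 and 4 at 0 h and 5 and 4 at 6 h, so its groups overlapped. Of these, 2 and 3 at 0 h and 1 and 2 at 6 h lay within 1 stretch at its start. The count of Cited2 thus also depends on how the signal there was split into peaks. Edn2 had 1 peak in each library. In the order of levels at 6 h, Pparg was first, and Cited2 and Snap25, the next, did not differ beyond the spread of Cited2. Cxcr4, Prkg2, Pgr, Edn2 and Il6 followed, and Prkg2 and Pgr, as well as Pgr and Edn2, did not differ beyond the spread of Pgr. Single genes could not pass a test in this design. The exact permutation p was 0.333 for the 5 genes (adjusted p = 0.533 over the 8 genes), 0.667 for Cited2 and 1 for Edn2 and Il6. The separation of the 5 genes depended on the lists used. With lists of equal length, the times overlapped at Cxcr4 (difference 0.5 peaks). With the stronger 50% of each list, they overlapped at Cxcr4 (1 peak), Snap25 (1 peak) and Pgr (0.5 peaks). The share of all genes was not counted for these shorter lists.

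GR peaks of different libraries were joined into loci where they shared at least 1 bp, and the 8 windows held 23 of the 18584 loci. A locus only at 6 h had a peak in each 6 h library and in no 0 h library. Such loci were 9 of the 23, and 15.1% of all loci. They lay at 6 of the 8 genes, Pgr, Snap25, Pparg, Prkg2, Cxcr4 and Cited2, and 16.5% of all genes had one in the window. Loci called in all 4 libraries were also 9 of the 23 (27% of all loci) and lay at 6 genes, Edn2, Snap25, Pparg, Prkg2, Cxcr4 and Cited2 (45.5% of all genes). No locus was only at 0 h (4.15% of all loci, 6.78% of all genes). The remaining 5 were called in other sets of libraries. With each list reduced to its 9726 strongest peaks, the number in the shortest list, 5 loci at 5 genes were only at 6 h. With these shorter lists, 13% of all loci and 12.7% of all genes were in this class. There were still 9 loci in all 4 libraries, at 6 genes (27.8% of all loci and 42% of all genes), and none only at 0 h (8.98% and 15%). The 4 loci that were no longer only at 6 h were the weaker one of Snap25, the last pair of Pparg and that of Cxcr4.

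Longer genes have wider windows. The median gene length was 37926 bp for the 8 genes and 17170 bp for all genes. Split at 60 kb, a limit set after the data were seen, all 4 longer genes (Pgr, Snap25, Pparg and Prkg2) had a locus only at 6 h, and 24.6% of all longer genes did. Of the 4 shorter genes 2 did, Cxcr4 and Cited2, against 14.6% of all shorter genes. A locus in all 4 libraries lay at 3 of the 4 longer genes (43% of all longer genes) and 3 of the 4 shorter ones (46%).

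**Figure D2:**
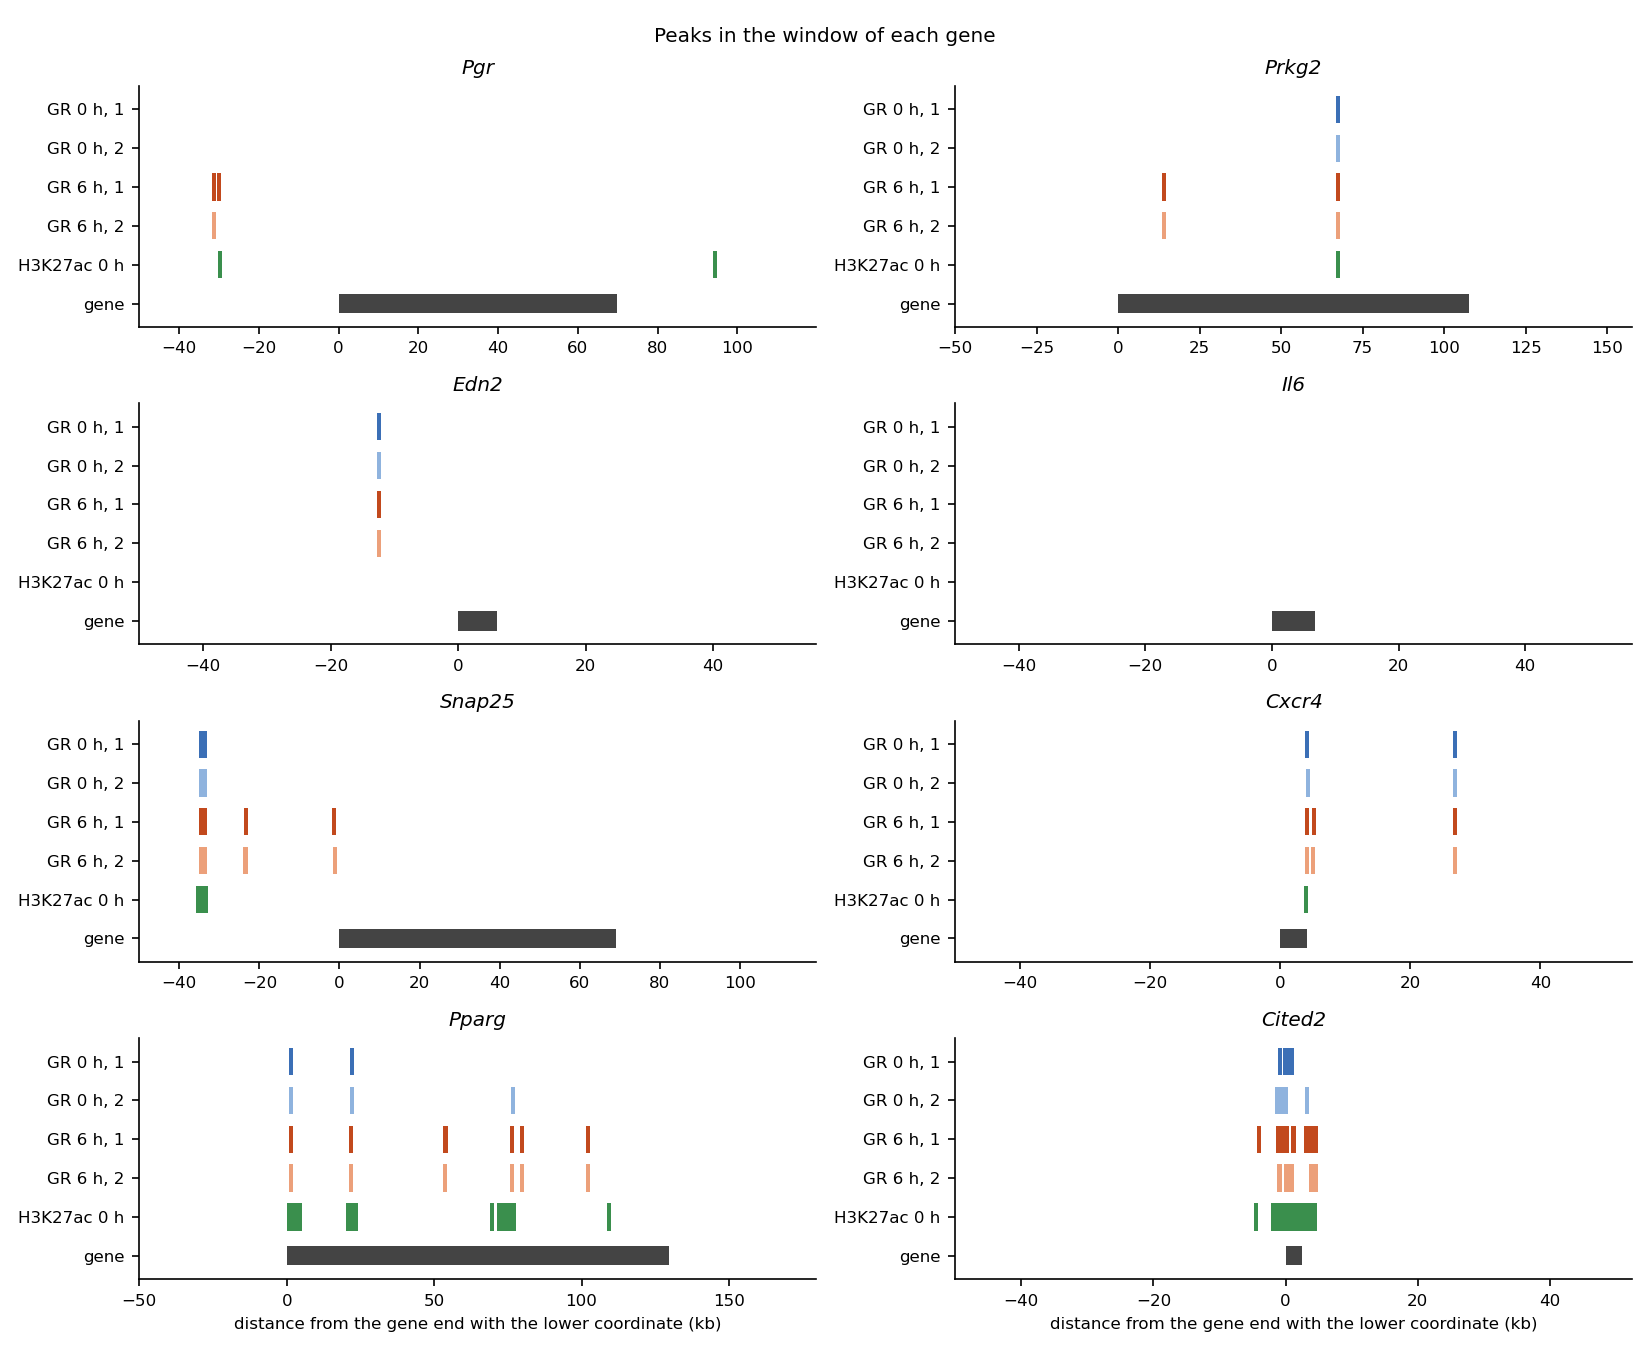
Peaks in the 8 windows. The horizontal axis is the distance in kb from the gene end with the lower coordinate, rows are the 4 GR libraries, the H3K27ac library and the gene span (dark bar), and narrow peaks are widened to a minimum so that they can be seen. Pparg has 6 GR loci, all inside the gene, and the window of Il6 is empty.

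**Figure D3:**
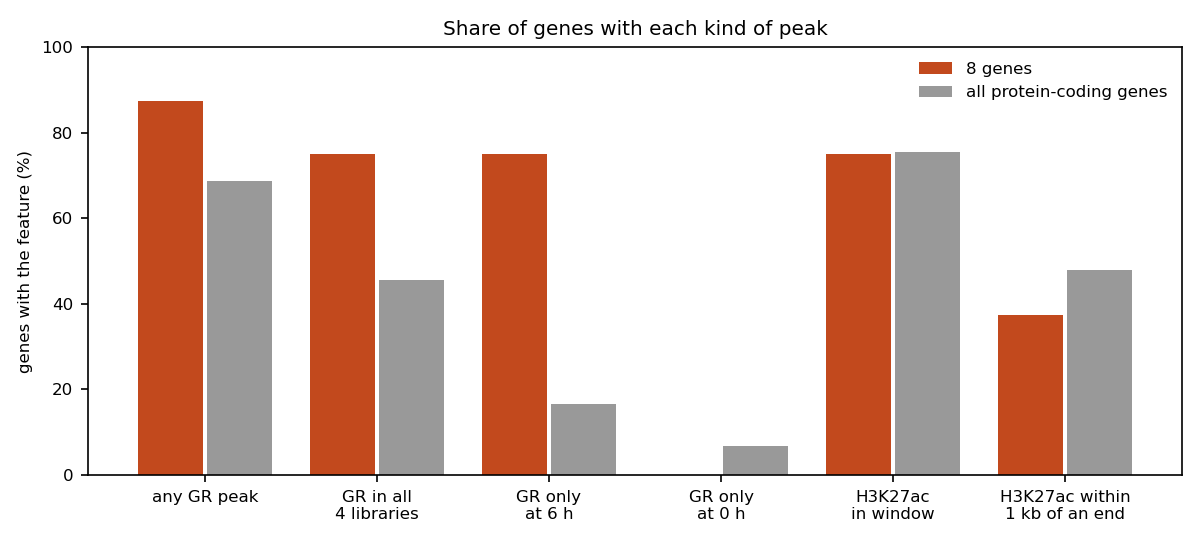
Share of genes (%) with each kind of peak in the window, for the 8 genes and for all 21883 protein-coding genes. Loci only at 6 h were found at 75.0% of the 8 genes and 16.5% of all genes, and H3K27ac peaks in the window at 75.0% and 75.4%.

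Pgr itself (chromosome 9, 8898900 to 8968611 of mm10, plus strand) had no GR peak inside the gene or at its start. The 2 loci of its window lay side by side upstream. The first (8867545 to 8867940) was only at 6 h, 32.1 kb before the start site and 30.96 kb from the gene. The start site used, 8899833, lies within the gene span. Fold enrichments of the first locus over background, as the authors give them, were 9.65 and 6.90. These peaks stood at the 52.6th and 26.8th percentile of their lists, where the 100th is the strongest by the authors' p-value, so they were of middle to low rank. Their summits, the highest points of the peaks, were 29 bp apart. The second (8868662 to 8868954) was called only in the first 6 h library, with 6.06. An H3K27ac peak of 0 h (8869059 to 8869438) lay 105 bp from the second locus and 1119 bp from the first and overlapped neither. Another H3K27ac peak lay 24461 bp beyond the gene, and no GR peak lay there.

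Edn2 encodes endothelin-2, a secreted peptide that makes smooth muscle contract. The gene (chromosome 4, 120161206 to 120167360, plus strand) had 1 locus. This locus (120148624 to 120149042) lay 12.4 kb before the start site and was called in all 4 libraries. The fold enrichments were 8.83 and 7.44 at 0 h and 13.3 and 10.2 at 6 h. Both 6 h values were above both 0 h values. The window held no H3K27ac peak at 0 h, and the nearest to this locus was 133510 bp away. Of all loci in all 4 libraries, 98.4% lay in an H3K27ac peak.

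Il6 encodes interleukin-6, a cytokine that cumulus cells make around ovulation. The window of the gene (chromosome 5, 30013114 to 30019975, plus strand) had neither a GR peak nor an H3K27ac peak. The nearest GR locus beyond the window (29935656 to 29936617) lay 76.5 kb from the gene, outside any protein-coding gene and within an H3K27ac peak. It was only at 6 h, with fold enrichments of 24.7 and 31.2, at the 98.7th and 99.5th percentile of the lists. It is not counted in any number on the 8 windows, and its distance does not show which gene it serves.

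Cxcr4 encodes the receptor of the chemokine CXCL12. On chromosome 1 the gene spans 128588199 to 128592299 (minus strand). A locus over its start (128591944 to 128592637) was called in all 4 libraries and covers the promoter printed above. The fold enrichments were 6.25 and 7.51 at 0 h and 11.8 and 8.46 at 6 h. The 0 h peaks were weak within their lists, at the 9.49th and 27.7th percentile, and the 6 h peaks stood at the 74.4th and 68.1th. Summits lay 121 bp before the start site to 29 bp after it. The locus overlapped the edge of an H3K27ac peak (128591926 to 128592232), and the summits of all 4 libraries lay outside that peak. A locus only at 6 h (128593170 to 128593475) lay 871 bp outside the gene end at which transcription starts, and it was weak, with 5.93 and 6.68, and outside H3K27ac. A further locus 22.8 kb before the start (128614824 to 128615417) was called in all 4 libraries, with 7.89 and 7.12 at 0 h and 7.31 and 8.52 at 6 h, so its groups overlapped. It lay 22592 bp from the nearest H3K27ac peak. Beyond the window, the nearest locus was only at 6 h, 79.9 kb from the gene, with 11.6 and 14.2.

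Snap25 encodes a membrane protein of the SNARE complex, which fuses vesicles with the plasma membrane. The gene spans 136713439 to 136782428 of chromosome 2, and all 4 of its loci lay on the side of the lower coordinates. The locus nearest to the gene (136711919 to 136712561) was 878 bp outside it and only at 6 h. Its fold enrichments were 15.7 and 14.2, each at the 91.4th percentile, with summits 25 bp apart. It lay 31397 bp from the nearest H3K27ac peak. The other locus only at 6 h (136689775 to 136690149) was weak, with 4.99 and 3.80. The remaining loci (136678393 to 136679348 and 136679678 to 136680126) were called in all 4 libraries, 34.1 and 33.3 kb from the gene and within the same H3K27ac peak of 2855 bp. The first had fold enrichments of 7.52 and 9.06 at 0 h and 15.1 and 9.18 at 6 h, and the second had 7.02 and 6.87 at 0 h and 8.02 and 4.76 at 6 h. The second overlapped between the times, and the first did not, by a small margin in 1 pair of libraries.

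Prkg2 encodes cGMP-dependent protein kinase 2, which phosphorylates proteins when cyclic GMP is high. The gene is on chromosome 5 (98929773 to 99037375), and both of its loci lay inside the gene. The first (98943647 to 98944111), 13.9 kb from the gene end with the lower coordinate, was only at 6 h. It had the highest percentiles of the 9 loci only at 6 h, 96.1 and 96.2, with fold enrichments of 17.7 and 14.9. It lay 52626 bp from the nearest H3K27ac peak. The second (98996962 to 98997568) was called in all 4 libraries and lay in the only H3K27ac peak of the window. Its fold enrichments were 7.34 and 6.40 at 0 h, in the lower part of the lists (32.0th and 9.67th percentile), and 23.2 and 21.2 at 6 h (97.7th and 97.5th).

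Pparg encodes a nuclear receptor that governs lipid genes. It lies on chromosome 6 (115360879 to 115490404, plus strand), and all 6 of its loci lay inside the gene. Its window held 9 of the 17 H3K27ac peaks of the 8 windows, 15270 of 27461 bp. The locus at the second start site (115361943 to 115362513), over the promoter printed above, was called in all 4 libraries. Its fold enrichments were 9.39 and 9.48 at 0 h and 9.30 and 6.87 at 6 h. It was the only shared locus of the 8 genes with both 6 h values below both 0 h values. It fell below them by a small margin in the first 6 h library. Its summits lay 81 bp before the start site to 21 bp after it. The locus 20.3 kb downstream of that start (115382175 to 115383137) had 7.58 and 8.50 at 0 h and 19.5 and 19.7 at 6 h, and its 6 h peaks stood at the 98.1th percentile of both lists. It lay in an H3K27ac peak of 4111 bp.

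The 3 loci of Pparg only at 6 h (115414508 to 115414896, 115440586 to 115440848 and 115462891 to 115463229) were outside H3K27ac. Their fold enrichments were 7.75 and 6.44, 6.91 and 7.65, and 6.76 and 7.73. The first lay 7.36 kb before the last start site of the gene. The promoter at that site held neither a GR peak nor an H3K27ac peak. The remaining locus (115437291 to 115437701) was called in both 6 h libraries and the second 0 h library, with 9.48 and 9.93 at 6 h and 8.44 at 0 h.

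Cited2 encodes a transcriptional co-regulator that binds CBP and p300 and restrains hypoxia-inducible factors. It lies on chromosome 10 (17723228 to 17725674, plus strand), within an H3K27ac peak of 7053 bp (17721011 to 17728063) that held 4 of its 5 loci. The locus at its start (17721694 to 17723917) was called in all 4 libraries and covers the promoter printed above. It held the highest fold enrichment of the 8 windows in both 0 h libraries and the first 6 h library, and in the second 6 h library that of Prkg2 was highest. The fold enrichments of the strongest peak per library were 18.7 and 17.7 at 0 h and 25.8 and 11.9 at 6 h, so the groups overlapped, and the second 6 h library was the lowest. The summits of these peaks fell 14 bp before to 23 bp after the start site. The locus beyond the gene's other end (17726699 to 17728131) was only at 6 h, with 14.3 and 13.4, and it was the only one of the 9 within H3K27ac. It lay 82 bp from a locus called in the second 0 h and first 6 h library (17726141 to 17726617), with 5.61 and 8.75. Joined across gaps of up to 500 bp, these count as 1 locus that is not only at 6 h. A further locus inside the gene (17724035 to 17724771) was called in the first 0 h library (5.26) and both 6 h libraries (10.3 and 6.68). The last locus (17719088 to 17719435) lay 3.97 kb before the start site, outside H3K27ac. It was weak and called only in the first 6 h library (4.04).

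Of the 9 loci in all 4 libraries, 5 had higher fold enrichments in each 6 h list than in each 0 h list, those of Edn2 and Prkg2, the first of Snap25, the second of Pparg and the start of Cxcr4. Of all loci in all 4 libraries, 9.16% did. The reverse held for 1, the start of Pparg, and for 20.8% of all. By percentile within the list, the same 5 loci were higher at 6 h (13.7% of all) and the same 1 lower (25.4% of all). These values come from lists that were scaled separately and differ in length, so they describe where a peak stood in each list and do not measure a change in binding.

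**Figure D4:**
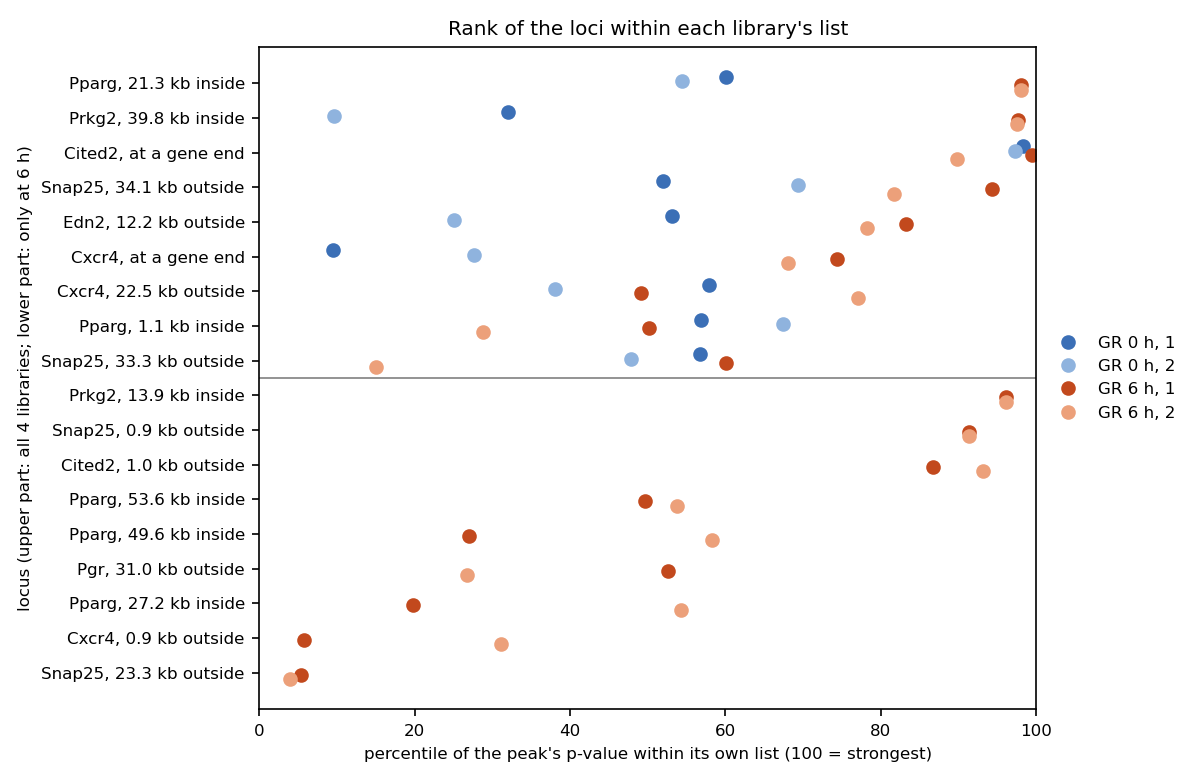
Percentile of each peak within its own list (horizontal axis, 100 is the strongest by the authors' p-value) at the 9 loci in all 4 libraries (above the line) and the 9 loci only at 6 h (below it), for the strongest peak of each library (points, coloured by library). Labels give the gene and the distance of the locus from the nearest gene end. The 6 h points of the shared loci 39.8 kb inside Prkg2 and 21.3 kb inside Pparg stand at 97.5 to 98.1. Those of the loci only at 6 h spread from 3.91 to 96.2.

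Most loci only at 6 h lay outside the chromatin that carried H3K27ac before hCG. Of the 9 loci only at 6 h, 1 lay in an H3K27ac peak of 0 h, where 39.3% of all such loci did, and the other 8 lay 938 to 52626 bp away from one. Of the 9 loci in all 4 libraries, 7 overlapped one, where 98.4% of all such loci did. Those of Edn2 and the upstream one of Cxcr4 did not. An overlap of 1 bp was enough, and the start locus of Cxcr4 overlapped only with its edge. Counted per library, 9 of 11 and 10 of 13 peaks at 0 h (81.8% and 76.9%) and 11 of 23 and 11 of 21 at 6 h (47.8% and 52.4%) overlapped H3K27ac. The means were 79.4 ± 3.46% and 50.1 ± 3.22% (SD, n = 2 each), a difference of −29.3 percentage points, larger than the spread (exact permutation p = 0.333, the smallest possible). In the whole lists the shares were 94.6% and 94.6% at 0 h and 77.9% and 70.7% at 6 h. H3K27ac was mapped at 0 h only, in 1 library.

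Windows have edges. The outermost feature counted was an H3K27ac peak 49974 bp before Cited2 that crosses the edge of its window, and the nearest features left out were an H3K27ac peak 52988 bp from Il6 and a GR locus 54084 bp from Pparg. Around Pgr, the nearest GR locus beyond the window was 158.3 kb away, inside the neighbouring gene Arhgap42.

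Other genes tied to the progesterone receptor and to the 8 genes were taken from lists chosen with earlier results of these data known, so they do not support each other. Of 15 further genes of progesterone receptor action, 11 had a locus only at 6 h in the window, 1 had one only at 0 h (Apoa1) and 9 had one in all 4 libraries. For comparison, the shares of all genes were 16.5% (only at 6 h), 6.78% (only at 0 h) and 45.5% (all 4 libraries), which apply to the counts that follow as well. The best-ranked loci only at 6 h were those of Zbtb16, a transcription factor gene, with fold enrichments of 27.3 and 32.4, Apoa1, an apolipoprotein gene (24.0 and 19.8), Abhd2, a lipid hydrolase gene (26.8 and 23.0), and Epas1, which encodes a hypoxia-inducible factor (19.4 and 20.8). Of 11 genes of receptor chaperones and coregulators, 5 had a locus only at 6 h, 1 only at 0 h (Fkbp5) and 11 in all 4 libraries. Among those with loci only at 6 h were the coactivator genes Ncoa3 (15.3 and 9.31) and Ncoa1 (8.94 and 7.05), and Fkbp5 (7.75 and 9.57) and Hsp90ab1 (6.88 and 5.97), which encode chaperones.

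Of 33 partner genes of the 8, 10 had a locus only at 6 h, 3 only at 0 h (Nppc, Vamp2 and Stat3) and 20 in all 4 libraries, where the shares of all genes were 16.5%, 6.78% and 45.5%. The count only at 0 h was near its share, and those only at 6 h and in all 4 libraries were above theirs. The groups of 2 to 6 genes are too small to set against these shares. Genes of interleukin-6 signalling had one only at 6 h in 4 of 5 cases, among them the cytokine gene Lif (22.8 and 21.7) and the receptor genes Il6st (13.6 and 13.0) and Il6ra (10.3 and 8.56). Of 6 endothelin genes, 3 did, including the receptor gene Ednra (14.6 and 13.0). No locus only at 6 h was found at the 6 SNARE genes, all 6 of which had a locus in all 4 libraries, at the 5 cyclic GMP genes or at the 2 genes of CXCR4 signalling. Of the 5 PPAR genes 2 had one, and of the 4 CITED genes 1 did.

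Of the 59 genes in these lists, the one most like Pgr in peak counts over the 5 libraries was Sult1e1, an oestrogen sulfotransferase gene, with a sum of absolute differences of 2 peaks. Sult1e1 had no peak in either 0 h library, 1 in each 6 h library and 1 H3K27ac peak. Ackr3, a receptor that takes up CXCL12, and Edn1, the endothelin-1 gene, followed at 3 peaks, a distance they shared with 2 other genes.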

How the data were processed

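Reads were aligned with Bowtie2 2.4.5 to mm10 and peaks called with MACS2, whose version the notes leave out, per the submitters' processing notes. The authors deposited 1 list per library. Each GR peak has a score (the −log10 p-value times 10, truncated), the ratio of signal over background (fold enrichment), −log10 p- and q-values and a summit, and the weakest deposited peaks have −log10 p-values of 9.00 to 9.10. The deposited H3K27ac list holds positions only.

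Peaks off chromosomes 1 to 19, X and Y were left out. The others were joined at 1 bp of overlap and assigned to gene spans of RefSeq GRCm38.p6 (the mm10 coordinates) with 50 kb to each side. The table gives no exons. Members and lists were chosen with earlier results of these data known. All 8 genes are named. 1 gene of a further list was left out of it and is not reported here. Windows with 6 or fewer loci are described in full, and from further lists up to 4 genes per class are named by rank, others after their values were seen. Libraries were compared by exact permutation tests (Python 3.11.15, numpy 2.4.6, pandas 2.3.3). Joining and classing were tested on simulated lists. The alternatives were other windows, limits, list lengths and joining, and each library left out.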

Additional observations from a re-analysis of the deposited data

How the results depend on the processing

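Loci in all 4 libraries numbered 5 with 10 kb to each side of the gene and 3, at 3 genes, with the stronger 50% of each list. With lists of equal length, 5 loci were only at 6 h and the difference in peaks was 6. With 100 kb to each side 1 locus, near Prkg2, was only at 0 h, at 1 gene, and Il6 gained one only at 6 h. With each library left out, loci only at 6 h numbered 9 to 11, loci in all remaining libraries 9 to 10, each class at 6 genes, the difference in peaks was 9 to 11 and that in H3K27ac overlap −31.7 to −26.8 percentage points. A class of loci has 1 condition fewer without a library, so its count tended to hold or grow by construction. All other values for the 8 windows kept their direction, or stayed within 1.5 times for counts. A similar count can hold different loci. With the stronger 50% of each list, 6 loci at 5 genes were only at 6 h. Of those described above, only 1 each of Snap25, Prkg2 and Cited2 stayed in this class, and that of Pgr did not. The others were shared loci of Prkg2 and Cxcr4 and a locus of Pparg, whose 0 h peaks fell below the limit. For single genes, of 80 values 3 became 0, that of Pgr with 10 and with 25 kb and that of Cited2 with lists of equal length. Another 2 arose from 0, that of Il6 with 100 kb (1.5 peaks) and that of Edn2 with the stronger 50% (0.5), 11 moved by over 1.5 times with the same sign, and 0 changed sign. No p could pass in this design, so the tests say nothing of stability. With the replicate block the difference stayed at 10 peaks (exact permutation p = 0.5, the smallest possible); labels give only a shared number, and differences between replicates 1 and 2 at the 2 times correlated over 21883 genes with r = 0.059, genes not being replicates. Depth is not known, so missing peaks cannot be weighed.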
